A study of Mus musculus with 9 samples.

Results

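The glycine cleavage system, glycine methylation and the methionine cycle were followed through 10 liver genes, chosen by symbol from a fixed list of enzymes (Gldc, Amt, Gcsh, Gnmt, Mat1a, Ahcy, Bhmt, Cbs, Pemt and Shmt1). All 10 were found among the 51912 genes listed, and all 10 passed the filter on low values among 11991 tested genes. RNA sequencing was performed on liver tissue taken after fasting from mice of the C57Bl/6 background with the genotype Apoe-/-Ndst1 f/f Alb-Cre+. The mice received either an antisense oligonucleotide (ASO) against Apoc3, the gene of apoC-III (5 livers), or a control ASO (4 livers), at 50 mg/kg/week for 8 weeks. Every liver, controls included, therefore lacked apoE and carried a deletion of Ndst1, a heparan sulfate sulfotransferase, made by Cre under the albumin promoter, which is active in hepatocytes. Age and sex were not given in the sources used here, and neither was the diet of these particular livers. The comparison addressed which hepatic transcripts differed when apoC-III was lowered in the absence of apoE.

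The glycine cleavage system is a mitochondrial complex that breaks glycine down and passes its methylene carbon to tetrahydrofolate. In the cytosol, glycine is instead methylated by Gnmt with S-adenosylmethionine (SAM) as the donor, and the methionine cycle remakes SAM through homocysteine. Liver is a principal site of both routes, and hepatocytes express all of these enzymes. In bulk tissue, fewer cells of a type and less RNA per cell cannot be told apart.

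Promoter sequence is shown for 3 genes: Gldc, the member whose 2 groups did not overlap, Amt, its partner in the complex, and Gnmt, the competing route for glycine. Each is the stretch before the RefSeq start site (RefSeq, GRCm38.p6), written 5′ to 3′ on the strand of the gene, with capitals marking matches, on either strand, to the CCAAT box, to the GC box core GGGCGG and to the nuclear receptor half-site AGGTCA. Gldc lies at chr19:30175442-30175691 (minus strand, 250 bases), Amt at chr9:108296655-108296852 (plus strand, 198 bases) and Gnmt at chr17:46729169-46729415 (minus strand, 247 bases). In Amt and Gnmt the last 52 and 3 bases before the RefSeq start were left out because GENCODE M21 places them inside the gene.
Gldc: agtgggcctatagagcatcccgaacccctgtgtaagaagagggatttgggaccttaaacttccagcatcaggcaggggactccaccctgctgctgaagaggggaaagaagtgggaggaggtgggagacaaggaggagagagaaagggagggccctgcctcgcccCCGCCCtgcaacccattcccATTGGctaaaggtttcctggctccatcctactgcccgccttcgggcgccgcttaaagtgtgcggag
Amt: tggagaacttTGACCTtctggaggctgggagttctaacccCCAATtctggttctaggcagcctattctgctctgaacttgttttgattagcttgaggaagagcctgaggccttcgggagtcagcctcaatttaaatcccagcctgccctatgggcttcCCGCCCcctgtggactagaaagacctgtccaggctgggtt
Gnmt: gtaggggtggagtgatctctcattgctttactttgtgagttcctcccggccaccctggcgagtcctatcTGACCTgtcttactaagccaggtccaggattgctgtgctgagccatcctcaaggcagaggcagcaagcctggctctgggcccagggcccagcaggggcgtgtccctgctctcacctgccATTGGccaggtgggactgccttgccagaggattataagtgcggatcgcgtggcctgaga

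The CCAAT pentamer, read on both strands, lay in the 250 bases before the start of all 9 members that RefSeq's promoter table held (all but Mat1a), against 34.5% of 27025 promoters of the same length. In Gldc it sat on the opposite strand at bases -66 to -62 and in Gnmt at bases -62 to -58. The GC box core was found in 6 of the 9 members (32.9% of all promoters). The nuclear receptor half-site was found in 4, namely Amt, Gnmt, Ahcy and Bhmt (13.8% of all promoters). TGACG, the core of the cyclic AMP response element, was found in Shmt1 alone (17.9%), and the E-box CACGTG bound by clock factors in Cbs alone (6.05%). No member held the TATA box TATAAA (13% of all promoters) or the forkhead motif TGTTTAC (3.09%). The full cyclic AMP response element, TGACGTCA, which contains that core, was in none either (1.62%). These are matches of letters in a window and not binding sites.

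Values are TPM, transcript abundance per length and per library total, rescaled so that the nuclear protein-coding genes of each liver summed to 1000000, then divided by a median-of-ratios factor. This was needed because 7SL RNA took 64.0% to 83.6% of the deposited TPM and nuclear protein-coding genes between 1.94% and 8.64%. The ASO target showed the labelled treatment in every liver. Apoc3 stood at 383, 436, 338, 630 and 491 rescaled TPM in the apoC-III ASO livers and at 3410.2, 3207, 3521 and 4342 in the control ASO livers, and its difference was -3.01 on the log2 scale (p = 0.0159 by a two-sided exact permutation test, which can go no lower with 5 against 4 livers). Hepatocyte markers were abundant throughout, from 23936 to 53584 rescaled TPM summed over 7 genes, and S100a8, a neutrophil gene, was the only cell type marker listed at 0 in every liver. Some libraries stood apart. Control ASO replicate 4 had the lowest protein-coding share (1.94%) and the highest erythroid marker sum (2208 rescaled TPM against 62.8 to 207 in the other controls). ApoC-III ASO replicates 1 to 3 differed from replicates 4 and 5 and from the controls in some circadian clock genes: Arntl, a core clock activator, stood at 11.2 to 31.3 rescaled TPM in those 3 livers and at 0.324 to 2.78 in the other 6. The split was less clean elsewhere. The sum of 15 clock genes was 211 to 399 in those 3 livers, 405 in control ASO replicate 4 and 718 to 1086 in the rest. Nr1d1 overlapped, at 21.8 to 42.7 in those 3 livers and 1.93 to 26.1 in controls. Pericentral hepatocyte markers were lower in 8 of 9 genes after apoC-III ASO. Of these, 4 (Glul, Oat, Slc1a2 and Lect2) had an unadjusted limma p under 0.05, against 5.55% of all genes. Oat and Lect2 are also genes that the study named on these livers. Pericentral sums were 3342 to 6478 rescaled TPM after apoC-III ASO and 5480 to 10826 in controls. The 10826 belonged to control ASO replicate 4, and the other controls spanned 5480 to 6256. The 6478 belonged to apoC-III ASO replicate 5, and the rest of its group spanned 3342 to 4677. Of 9 periportal hepatocyte markers, 4 were higher and 5 lower, with Hal alone, higher, at an unadjusted limma p under 0.05. The part of these library differences in the members' values was not tested. The log2 fold change of each member is also given with control ASO replicate 4 left out and with apoC-III ASO replicates 1 to 3 left out, the latter over 2 against 4 livers. Another fit kept all 9 livers and used a score of the clock genes as covariate. That score was highest in apoC-III ASO replicates 1 to 3, so it overlaps with the ASO group. The log2 fold changes with it were 0.99 for Gldc, 0.078 for Amt, 0.40 for Gcsh, -0.11 for Gnmt and -0.087 for Mat1a. They were -0.14 for Ahcy, -1.08 for Bhmt, 0.72 for Cbs, -0.15 for Pemt and -0.050 for Shmt1.

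Across all 11991 genes, limma called 2 (0.0167%), both of them lower, by requiring more than a 1.5-fold change and a p under 0.05 after Benjamini-Hochberg adjustment: Apoc3 and the aminopeptidase gene Anpep. None of the 10 members was called. The study applied the same cut-offs to read counts of these livers and called more genes, Gldc among them. The values and the test differ, so a missing call here does not show that a member was unchanged. One member, Gldc, had an unadjusted p under 0.05, against 5.55% of all genes, and the same gene was the 1 member of 10 whose groups did not overlap, against 1.83% of all genes. Of the members, 4 were higher and 6 lower after apoC-III ASO (50.1% of all genes were lower). Without the median-of-ratios factors, 3 members and 12.0% of all genes were lower, and in the TPM as deposited without control ASO replicate 4 it was 7 of 9 members and 83.8% of all genes. Their median log2 fold change was -0.25, beside -0.0012 for all tested genes, and without apoC-III ASO replicates 1 to 3 it was 0.17, with 2 of 10 lower.

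**Figure D1:**
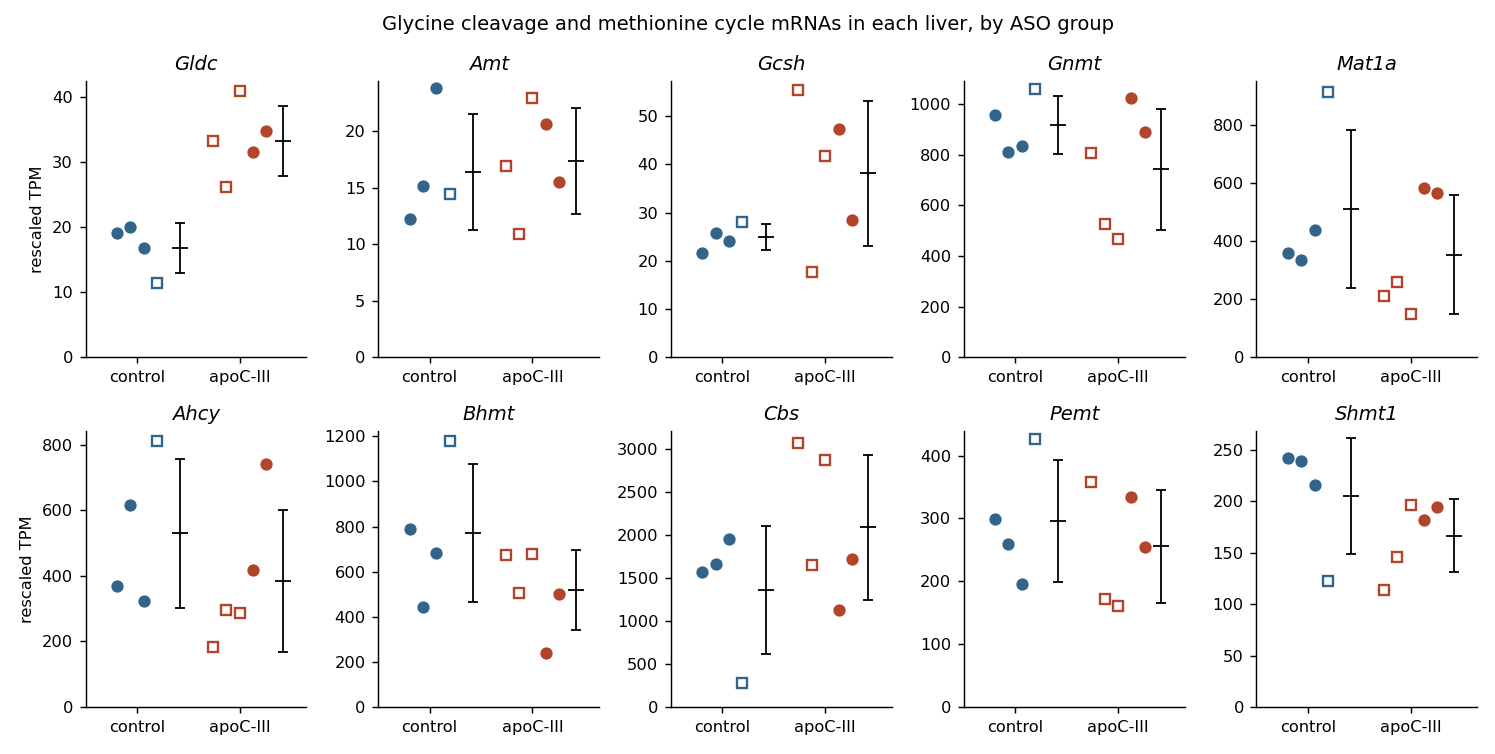
Rescaled TPM of the 10 members in each liver, with control ASO in blue and apoC-III ASO in red; open squares mark control ASO replicate 4 and apoC-III ASO replicates 1 to 3, and black bars are the mean ± SD of 4 and 5 livers. The groups are apart for Gldc (26.1 to 41.0 after apoC-III ASO, 11.4 to 20.0 in controls) and overlap for the other 9 genes.

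The levels of the members differed widely. On the per-length scale of rescaled TPM, averaged over 9 livers, Cbs was the highest at 1768 and made up 38.2% of the sum of the 10 members. It was followed by Gnmt (820.4), Bhmt (632), Ahcy (449), Mat1a (423), Pemt (273) and Shmt1 (184). The mRNAs of the 3 listed glycine cleavage proteins were far lower, with Gcsh at 32.3, Gldc at 26.0 and Amt at 17.0. Dld, which completes the complex but is no member, averaged 44.3. Shmt1 exceeded Gcsh in 9 of 9 livers, so the break between the other enzymes and the glycine cleavage genes was larger than the spread. Neighbours elsewhere in the order changed places: Bhmt exceeded Ahcy in 6 of 9 livers and Ahcy exceeded Mat1a in 5. The order by the TPM as deposited was the same. The sum of the 10 members was 4602 ± 778 rescaled TPM after apoC-III ASO (SD, n = 5) and 4656 ± 175 in controls (SD, n = 4).

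The glycine cleavage system opens with Gldc, the P protein, which decarboxylates glycine (gene on chr19:30098447-30175429, minus strand). Gldc measured 33.2, 26.1, 41.0, 31.6 and 34.7 rescaled TPM in apoC-III ASO livers 1 to 5, and 19.1, 20.0, 16.8 and 11.4 in control ASO livers 1 to 4. Every apoC-III ASO liver was above every control. The means were 33.3 ± 5.38 (SD, n = 5) and 16.8 ± 3.85 (SD, n = 4), which gave 0.96 as the log2 fold change (SE 0.22, 95% interval 0.47 to 1.45). Its unadjusted limma p was 0.00116, rank 19 of 11991 genes, and its adjusted p was 0.734. Gldc is among the genes that the study itself called on these livers, so its direction is a description and not independent evidence. Leaving out control ASO replicate 4 gave 0.79 and leaving out apoC-III ASO replicates 1 to 3 gave 0.96. In the TPM as deposited the 2 groups of Gldc overlapped, and its log2 fold change was 0.53 (95% interval -0.20 to 1.27), where the median of all tested genes was 0.11. Its deposited values were low, from 0.109 to 2.36 TPM over the 9 livers (mean 1.37). Each deposited TPM became 104.9 rescaled TPM in control ASO replicate 4, the lowest liver for Gldc, and 12.6 to 35.1 in the other livers.

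Amt, the T protein, releases the methylene group to tetrahydrofolate. It measured 16.9, 10.9, 23.0, 20.6 and 15.5 rescaled TPM after apoC-III ASO and 12.2, 15.1, 23.8 and 14.5 in controls. The groups lay over each other, with the lowest value in an apoC-III ASO liver and the highest in a control. For Amt the log2 fold change was 0.080 (SE 0.27, 95% interval -0.50 to 0.66, adjusted p = 0.991 by limma), an interval that holds changes up to 1.58-fold. It was 0.037 without control ASO replicate 4 and 0.16 without apoC-III ASO replicates 1 to 3.

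Gcsh, the lipoylated H protein that shuttles the intermediate between the other subunits, measured 55.4, 17.6, 41.8, 47.3 and 28.5 rescaled TPM after apoC-III ASO. In controls it measured 21.6, 25.8, 24.1 and 28.1. Of the 5 apoC-III ASO livers, 4 were above all controls and replicate 2 was below all of them. The spread was 15.1 after apoC-III ASO (SD, n = 5) and 2.73 in controls (SD, n = 4). Its log2 fold change was 0.50 (SE 0.31, 95% interval -0.18 to 1.17, adjusted p = 0.899 by limma). Leaving out control ASO replicate 4 gave 0.56, leaving out apoC-III ASO replicates 1 to 3 gave 0.55, and leaving out apoC-III ASO replicate 2 alone gave 0.74.

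Dld, the L protein, reoxidises the H protein and is shared with the 2-oxo acid dehydrogenases; it is no member of the list of 10 but completes the complex. It measured 30.1, 32.6, 32.1, 46.5 and 34.0 rescaled TPM after apoC-III ASO and 40.7, 52.6, 40.0 and 90.3 in controls. All but 1 apoC-III ASO liver lay below all controls. For Dld the log2 fold change was -0.59 (95% interval -1.17 to -0.014, unadjusted p = 0.0454 and adjusted p = 0.877 by limma), -0.34 without control ASO replicate 4, the highest of the controls, and -0.40 without apoC-III ASO replicates 1 to 3.

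A ratio within a liver does not depend on the scale of that liver, except through the pseudocount of 1 on the log2 scale. The log2 of Gldc minus the mean log2 of its partners Amt, Gcsh and Dld was 0.12, 0.47, 0.37, -0.17 and 0.47 in apoC-III ASO livers 1 to 5 and -0.21, -0.44, -0.72 and -1.47 in control ASO livers 1 to 4. The groups did not overlap, although apoC-III ASO replicate 4 and control ASO replicate 1 were close. The means were 0.25 ± 0.28 (SD, n = 5) and -0.71 ± 0.55 (SD, n = 4), a difference of 0.96 (p = 0.0159 by a two-sided exact permutation test, its lowest possible value). Since Gldc had been named on these livers before, this p is no independent evidence. With Amt and Gcsh as the partners and Dld left out, the difference was 0.67 (exact permutation p = 0.0794). In the TPM as deposited, where the pseudocount weighs more, it was 0.43 (exact permutation p = 0.0159). Without apoC-III ASO replicates 1 to 3 it was 0.86 (exact permutation p = 0.133, the smallest that 2 against 4 livers allows).

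Partner by partner, the Gldc to Dld ratio was 0.976 ± 0.238 after apoC-III ASO (SD, n = 5) and 0.349 ± 0.153 in controls (SD, n = 4), with no overlap. The Gldc to Amt ratio was 1.98 ± 0.346 and 1.09 ± 0.412, and here the lowest apoC-III ASO liver (1.53) reached just under the highest control (1.56). The Gldc to Gcsh ratio overlapped more broadly, 0.990 ± 0.372 against 0.691 ± 0.204. Against Shmt2, the mitochondrial serine hydroxymethyltransferase that works beside the complex, the Gldc ratio was 0.267 ± 0.0716 and 0.114 ± 0.0212, again with no overlap. Since Gldc alone already had no overlap, the separation of these ratios is no separate evidence.

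**Figure D2:**
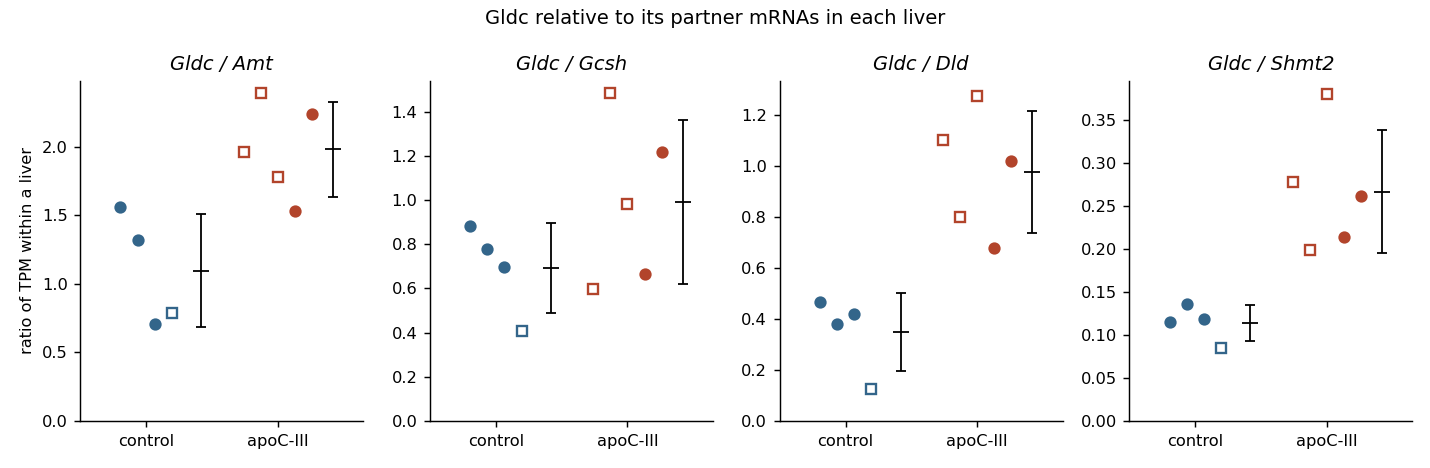
Ratio of Gldc to Amt, Gcsh, Dld and Shmt2 mRNA within each liver (ratio of TPM, no unit), with control ASO in blue, apoC-III ASO in red, open squares for control ASO replicate 4 and for apoC-III ASO replicates 1 to 3, and black bars for the mean ± SD. The groups are apart for Dld (0.679 to 1.28 against 0.126 to 0.468) and Shmt2 (0.199 to 0.381 against 0.0852 to 0.136) and overlap for Amt and Gcsh.

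Gnmt, glycine N-methyltransferase, disposes of excess SAM by making sarcosine (gene on chr17:46725664-46729168, minus strand). It measured 809, 525, 467, 1023 and 889.5 rescaled TPM after apoC-III ASO and 959, 813, 837 and 1062 in controls. Of the apoC-III ASO livers, 3 were below all controls, namely replicates 1 to 3, which were also the livers apart in clock genes. The log2 fold change was -0.36 (SE 0.27, 95% interval -0.95 to 0.23, adjusted p = 0.908 by limma), and 0.064 without those 3 livers. Without control ASO replicate 4 it was -0.29, and without apoC-III ASO replicate 3 alone -0.21. Gnmt lies inside the span of the long noncoding RNA Gm26904 on the opposite strand, which was listed at or near 0; the strand setting of the quantification was not given in the sources used here. The Gldc to Gnmt ratio was 0.0497 ± 0.0224 after apoC-III ASO (SD, n = 5) and 0.0189 ± 0.00582 in controls (SD, n = 4), with no overlap. Gldc alone already had no overlap, while Gnmt alone overlapped. The ratio therefore largely restates Gldc and is no separate evidence on cleavage against methylation of glycine.

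Mat1a, the liver methionine adenosyltransferase that makes SAM, had the highest coefficient of variation of the 10 members after apoC-III ASO (58.1%). It measured 211, 258 and 149.6 rescaled TPM in apoC-III ASO replicates 1 to 3 and 582 and 566 in replicates 4 and 5. Controls measured 358, 334, 438 and 914, so the apoC-III ASO livers apart in clock genes were below all controls and the other apoC-III ASO livers lay among them. The log2 fold change was -0.61 over all livers (SE 0.45, 95% interval -1.58 to 0.36, adjusted p = 0.906 by limma), -0.29 without control ASO replicate 4, -0.35 without apoC-III ASO replicate 3 alone and 0.30 without apoC-III ASO replicates 1 to 3. Its relative Mat2a, the extrahepatic form, ranged from 46.3 to 90.6 rescaled TPM over the 9 livers.

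Ahcy hydrolyses S-adenosylhomocysteine, the product of every SAM-dependent methylation. It measured 183, 295, 288, 418 and 742 rescaled TPM after apoC-III ASO and 368, 617, 323 and 812 in controls. Replicates 1 to 3 of the apoC-III ASO were again below all controls. For Ahcy the log2 fold change was -0.52 (SE 0.40, 95% interval -1.40 to 0.36, adjusted p = 0.912 by limma), and 0.17 without those 3 livers. Single livers moved it as well, to -0.28 without control ASO replicate 4, -0.29 without apoC-III ASO replicate 1 and, when apoC-III ASO replicate 5 was left out, -0.80 (unadjusted p = 0.0450 and adjusted p = 0.856 by limma). Its noncanonical relative Ahcyl1 ranged from 56.8 to 91.5 rescaled TPM.

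Bhmt remethylates homocysteine with betaine as the donor. It measured 672, 504, 678, 238 and 500.2 rescaled TPM after apoC-III ASO and 788, 443, 684 and 1178 in controls. The lowest liver was apoC-III ASO replicate 4 and the highest was control ASO replicate 4. The log2 fold change was -0.58 (SE 0.36, 95% interval -1.36 to 0.20, adjusted p = 0.899 by limma). Leaving out control ASO replicate 4 gave -0.35 and leaving out apoC-III ASO replicate 4 gave -0.32. Without apoC-III ASO replicates 1 to 3 it was -1.07 (unadjusted p = 0.0409 and adjusted p = 0.855 by limma). That value rests on 2 apoC-III ASO livers, 1 of them that lowest liver. With the clock score as covariate and all livers kept, it was -1.08 (95% interval -1.79 to -0.38). The unadjusted p was then 0.00623 and the adjusted p 0.702 by limma, where 6.42% of all genes had an unadjusted p under 0.05. Bhmt2, which uses S-methylmethionine as the donor, ranged from 28.8 to 48.2 rescaled TPM.

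Reads of Ahcy and Bhmt can be shared with near-identical copies, which were searched for as genes holding at least 5% of the 31-base words of a member. The other 8 members and Dld had none. Bhmt shared 27.1% of its words with Gm5096 and 15.6% with the processed pseudogene Bhmt-ps1. Gm5096 stood at 264 rescaled TPM in apoC-III ASO replicate 4, the liver with the lowest Bhmt, and at 2.73 to 8.41 in the other 8. Bhmt-ps1 stood at 0.849 to 1.92 rescaled TPM in 3 livers and at 214 to 856 in the other 6. Ahcy shared 68.7% of its words with Gm4737, 35.3% with Gm9826 and 11.1% with Gm5638. Gm4737 stood at 52.5 to 175 rescaled TPM after apoC-III ASO and at 143 to 371 in controls. Gm9826 stood at 74.9 and 109.6 rescaled TPM in apoC-III ASO replicates 1 and 5 and at 0 to 8.61 in the other 7 livers, and Gm5638 did not exceed 1.15 in any liver. With all copies added, Bhmt was 770.4 ± 255 after apoC-III ASO (SD, n = 5) and 1110 ± 631 in controls (SD, n = 4), and the log2 fold change was -0.45 (95% interval -1.24 to 0.34). Its mean over the 9 livers was then 921 and exceeded that of Gnmt. Ahcy with its copies was 513 ± 253 and 739.8 ± 326, a log2 fold change of -0.55 (95% interval -1.36 to 0.26). The values of Bhmt and Ahcy in single livers are therefore uncertain.

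**Figure D3:**
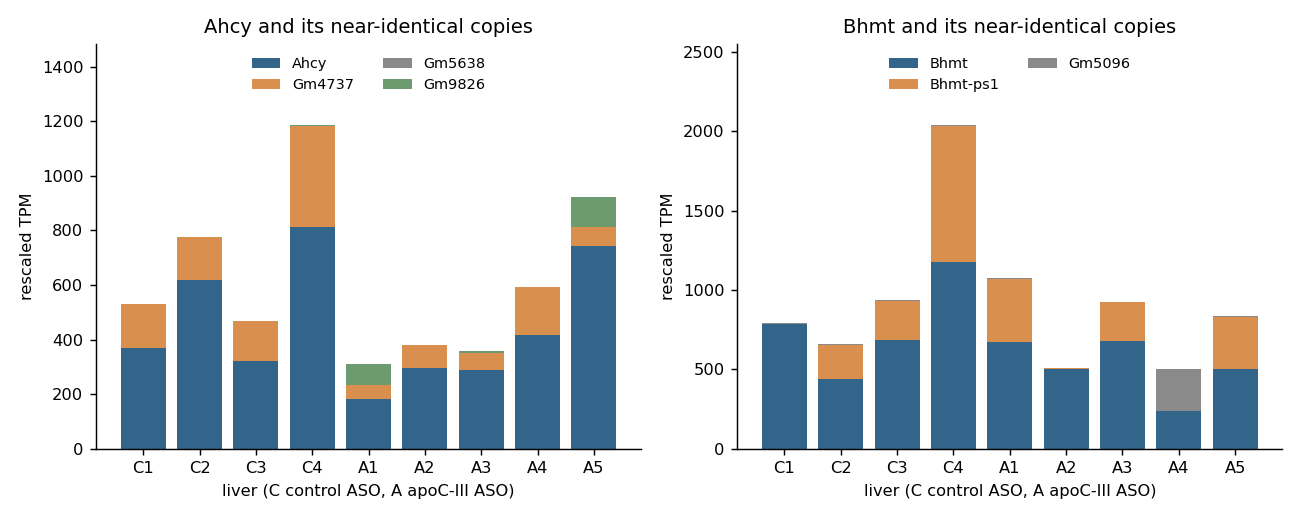
Rescaled TPM of Ahcy (left) and Bhmt (right) in each liver, stacked with the genes that share their sequence; C1 to C4 are control ASO and A1 to A5 apoC-III ASO livers. In A4 Bhmt is at 238 and Gm5096 at 264, while Gm5096 is under 8.5 in every other liver.

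Cbs, cystathionine beta-synthase, takes homocysteine out of the cycle toward cysteine. It measured 3076, 1655, 2874, 1125 and 1722 rescaled TPM after apoC-III ASO. In controls it measured 1574, 1659, 1951 and 276, so control ASO replicate 4 was 6.26-fold below the mean of the other 3 controls. For Cbs the log2 fold change was 0.84 (SE 0.54, 95% interval -0.35 to 2.03, adjusted p = 0.900 by limma). Without control ASO replicate 4 it was 0.18, and without apoC-III ASO replicates 1 to 3 it was 0.35.

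Pemt makes phosphatidylcholine from phosphatidylethanolamine and is a main user of SAM in liver. It ranged from 161 to 357 rescaled TPM after apoC-III ASO and from 196 to 426 in controls, and the log2 fold change was -0.22 (95% interval -0.90 to 0.45, adjusted p = 0.965 by limma). It was -0.030 without control ASO replicate 4, the highest control, and 0.039 without apoC-III ASO replicates 1 to 3, and leaving out 1 liver at a time gave -0.40 to -0.030. Shmt1, the cytosolic serine hydroxymethyltransferase that interconverts serine and glycine, measured 114, 146, 197, 182 and 195 rescaled TPM after apoC-III ASO. In controls it measured 243, 239, 217 and 122, so all 5 apoC-III ASO livers lay below 3 of the controls while control ASO replicate 4 lay among them. Its log2 fold change was -0.28 (SE 0.26, 95% interval -0.86 to 0.30, adjusted p = 0.942 by limma), and -0.51 without that control. Leaving out apoC-III ASO replicate 1 gave -0.15, and leaving out apoC-III ASO replicates 1 to 3 gave -0.071. Its mitochondrial relative Shmt2 ranged from 107.6 to 165.7 rescaled TPM over the 9 livers, a coefficient of variation of 12.4% against 25.8% for Shmt1.

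**Figure D4:**
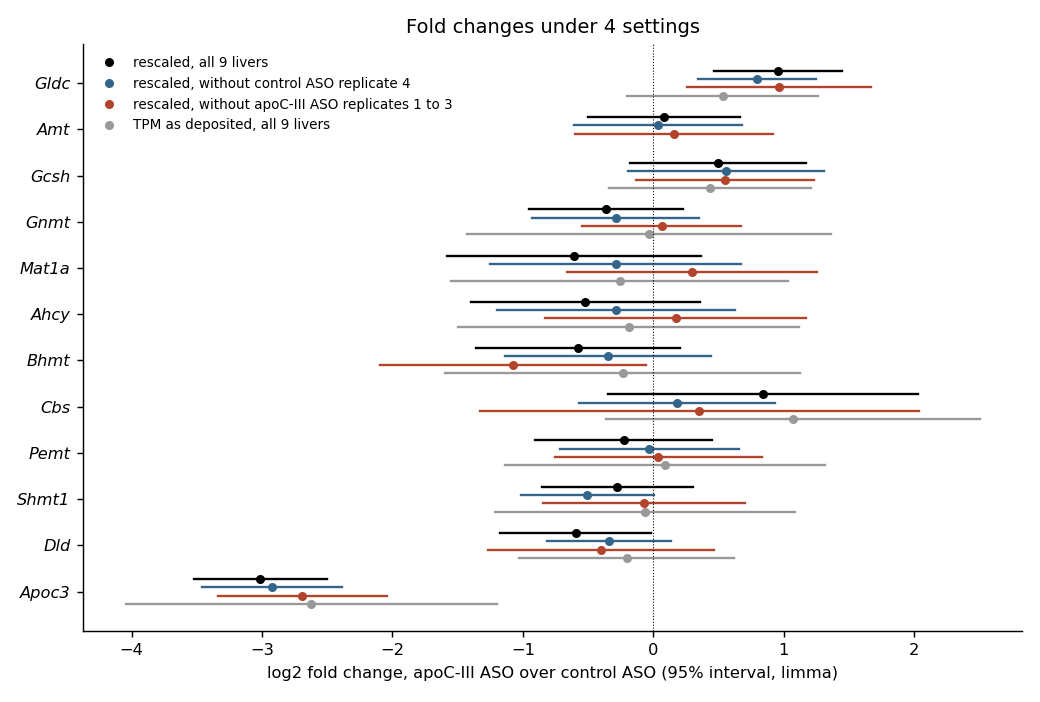
Log2 fold change of the 10 members, Dld and Apoc3, apoC-III ASO over control ASO, with 95% limma intervals, under 4 settings; Amt has no value in the TPM as deposited because its mean there was below 1. The estimates of Gldc (0.96, 0.79, 0.96 and 0.53), Gcsh and Cbs are above 0 in all 4. The intervals of Gcsh and Cbs all include 0, and so does that of Gldc in the TPM as deposited (-0.20 to 1.27). Mat1a moves from -0.61 to 0.30 when apoC-III ASO replicates 1 to 3 are left out.

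The wider one-carbon network was described by 67 further genes, of which 63 passed the filter on low values; Lipt2, Phgdh, Psat1 and Tdh did not. None was called. Of the 63, 32 were higher and 31 lower after apoC-III ASO, with a median log2 fold change of 0.025. That split moved with the scale, as it did for all genes: 6 of 63 were lower without the median-of-ratios factors (median 0.43), and in the TPM as deposited 11 of 39, or 31 of 39 without control ASO replicate 4. An unadjusted p under 0.05 was reached by 2 (5.55% of all genes), both lower, Dld and the histamine methyltransferase gene Hnmt. It was reached by 7 of 63 without apoC-III ASO replicates 1 to 3 (5.66% of all genes) and by 11 of 62 without control ASO replicate 4 as well (10.6% of all genes). Hnmt measured 13.6, 9.59, 9.34, 13.9 and 17.7 rescaled TPM after apoC-III ASO and 18.7, 21.6, 27.1 and 32.5 in controls. Its groups did not overlap, those of 1 gene among the 63 (1.83% of all genes), and the log2 fold change was -0.92 (SE 0.25, unadjusted p = 0.00356 and adjusted p = 0.765 by limma). By group, on the scale with those factors, the lipoylation and transport partners of glycine cleavage were higher in 2 and lower in 3 of 5 tested genes. The folate carriers and enzymes were higher in 11 of 17. Genes of the methionine cycle and of homocysteine use were lower in 10 of 13, with a median of -0.10, but in 2 of 13 without the median-of-ratios factors and in 5 of 13 without apoC-III ASO replicates 1 to 3. Choline and betaine oxidation was higher in 3 of 5 genes, the other methyl group users in 4 of 9, serine and glycine supply in 4 of 8 and sulfur amino acid use in 5 of 6. Without the factors most genes of every group were higher (4 of 5, 17 of 17, 11 of 13, 5 of 5, 7 of 9, 7 of 8 and 6 of 6 in the same order).

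**Figure D5:**
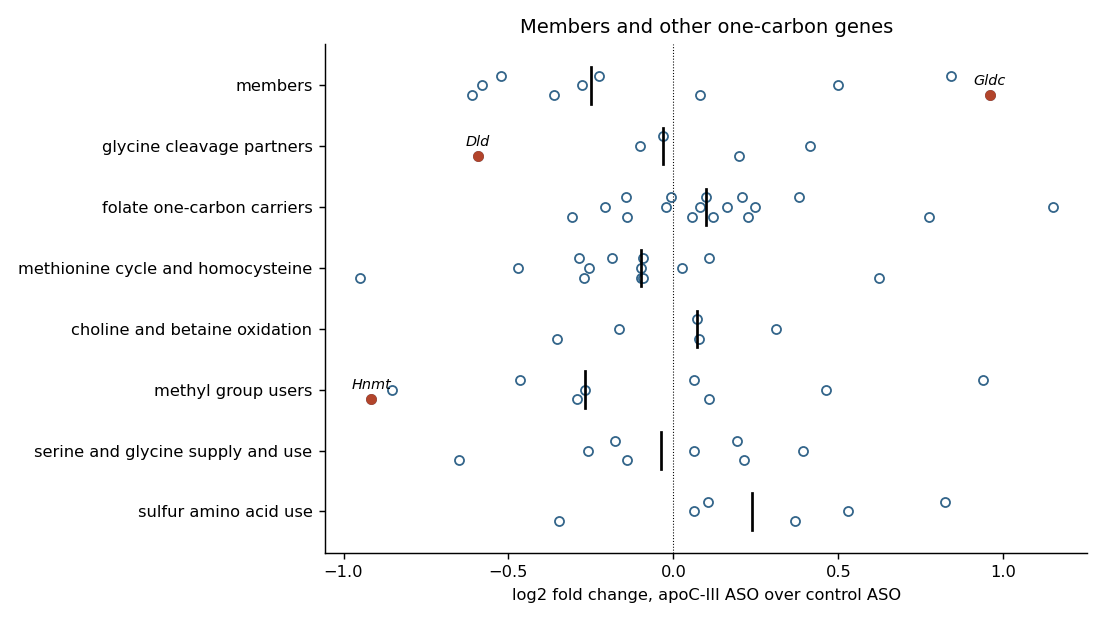
Log2 fold change, apoC-III ASO over control ASO, of each tested member and of 63 other one-carbon genes by group; filled points have an unadjusted p under 0.05 (Gldc, Dld and Hnmt) and black bars are group medians. The members spread from -0.61 (Mat1a) to 0.96 (Gldc).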

How the data were processed

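Total RNA of 9 mouse livers was sequenced on an Illumina HiSeq instrument from ribosomal RNA-depleted, stranded, single-end libraries. The deposited values are TPM per gene, which the authors made, per the submitters' processing notes, with kallisto 0.43.1 and GRCm38; the study's own gene calls used STAR, featureCounts and DESeq2 on counts not analysed here. TPM keeps no sequencing depth, so depth is unknown and no counting interval is given. Groups were taken from the ASO target in the labels; nothing says that livers of a group are separate experiments, so p-values measure the spread between these samples.

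Of the 51912 genes, 51719 (99.63%) matched GENCODE M21. The values of nuclear protein-coding genes were scaled to sum to 1000000 in each liver, then divided by median-of-ratios factors from 12263 genes. Genes with a mean of at least 1 were tested with limma 3.58.1 (R 4.3.3; trend) on log2(value + 1), so fold changes of low genes are understated; a call needed a Benjamini-Hochberg adjusted p under 0.05 over all tested genes and a change over 1.5-fold. Single values were tested by exact two-sided permutation over 126 splits (Python 3.11.15). The scripts were checked on simulated data. Copies were searched for in GENCODE M21 transcripts by 31-base words. All members, Apoc3, Dld, 4 near relatives, and pathway genes with an unadjusted p under 0.05 were named; the copies, Gm26904 and single markers were picked later, with their values in view. The members and all lists were chosen with earlier results of these data known. The 26 alternatives covered scaling, pseudocount, filter, test options, a replicate block, a clock covariate and left-out livers.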

Additional observations from a re-analysis of the deposited data

Results flagged for a closer look

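Dld, the L protein of the glycine cleavage complex, was highest among the 5 apoC-III ASO livers in replicate 4, at 46.5 rescaled TPM against 30.1 to 34.0 in the other 4 livers. The gap to the next liver, as a share of the range of the group, was 0.762 and exceeded the critical value of 0.71 of Dixon's test at the 95% level. Chance alone flags about 1 in 20 groups, and 24 groups were examined. The same liver had the highest erythroid marker sum among the apoC-III ASO livers, 959 against 50.4 to 118 rescaled TPM; its part in the Dld value was not tested.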

How the results depend on the processing

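No member was called under any alternative in which it was tested (26, but 23 for Amt, which fell below the filter in both settings of the TPM as deposited and with scaling by all genes), and Gldc, Gcsh, Bhmt and Dld kept their direction in all of them (Gldc 0.29 to 1.40 on the log2 scale). Apoc3, the ASO target, was itself not called in the TPM as deposited (adjusted p = 0.104 by limma). Nor was it without apoC-III ASO replicates 1 to 3 (adjusted p = 0.104 by limma). A missing call of a member in these 2 settings therefore says little. Genes called lower over the whole table numbered 2. They were 6 (and 5 higher) in the TPM as deposited. There without control ASO replicate 4, 1 gene was called higher, and Apoc3 was called lower (log2 fold change -3.21, adjusted p = 0.0027 by limma). Genes called lower were 4 without control ASO replicate 4 and apoC-III ASO replicates 1 to 3. They were 0 without apoC-III ASO replicates 1 to 3 alone (678 at an unadjusted limma p under 0.05). By exact permutation per gene they were 0, as the design fixes (3807 genes at its smallest p of 0.0159 would be needed, and 219 do not overlap). They were 1 with the clock covariate, no trend, no filter, pseudocount 5, no scaling factors or scaling by all genes (1 higher). Leaving out 1 liver gave 1 to 3 lower (1 for control ASO replicates 1 and 3 and for apoC-III ASO replicates 1 to 4) and 0 to 1 higher. Replicate numbers did not pair the livers (correlations of deviations 0.067, 0.12, 0.028 and 0.19, with 3 of 8 livers closest to their own number); the replicate block gave 1 gene higher and 2 lower, and 4 members instead of 1 at an unadjusted limma p under 0.05 (7.78% of all genes): Gldc 0.94, Ahcy -0.80, Mat1a -0.83 and Cbs 0.89, with adjusted p from 0.522 to 0.607; 7 of 63 pathway genes instead of 2 were at that level. Reversed values were: Amt -0.0088 with array weights and, with 1 liver left out, from -0.038 (control ASO replicate 1) to 0.26 (control ASO replicate 3); without factors, Gnmt 0.12, Pemt 0.25 and Shmt1 0.20, where the median of all genes moved to 0.41 (0.11 as deposited, -0.23 there without control ASO replicate 4); Pemt 0.090 and Cbs -0.16 in the TPM as deposited, the latter without control ASO replicate 4; without apoC-III ASO replicates 1 to 3, Gnmt 0.064, Mat1a 0.30, Ahcy 0.17 and Pemt 0.039, and without control ASO replicate 4 as well, 0.14, 0.62, 0.41 and 0.23, and Cbs -0.31. Gldc against its partners fell to 0.67 without Dld (exact permutation p = 0.0794) and 0.86 without apoC-III ASO replicates 1 to 3 (p = 0.133, the exact minimum). The copies and both settings without apoC-III ASO replicates 1 to 3 were added after the data were seen. Causes were not tested.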
